A study of Mus musculus with 6 samples.

Results

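The granins and the granule membrane proteins Ptprn and Ptprn2 were described in pancreatic islets of mice labelled as lacking Ythdc1 in beta cells. The 7 genes were taken by name from the deposited expression table (Chga, Chgb, Scg2, Scg3, Vgf, Ptprn and Ptprn2), and all 7 were found among its 54532 genes. Of the 6 libraries, 3 are labelled Ythdc1-betaKO, a knockout of Ythdc1 in beta cells (bKO here), and 3 Ythdc1flox/flox, which carry the floxed alleles without the knockout (control here), all from mice aged 7 weeks. The Cre driver is not given in the sources used here. YTHDC1 is a nuclear protein that binds N6-methyladenosine in RNA. RNA came from whole islets, so alpha, delta and PP cells contributed to every value, and fewer cells of a type cannot be told apart from less RNA per cell.

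Granins are acidic proteins of dense-core secretory granules, the vesicles that store insulin and other peptide hormones. They aggregate with hormones and calcium in the Golgi as granules form, and several are cut into bioactive peptides that leave the cell with the hormone. Chromogranin A is widely used as a marker of endocrine cells. Ptprn (IA-2) and Ptprn2 (phogrin) span the granule membrane, belong to the receptor-type tyrosine phosphatase family and are autoantigens in type 1 diabetes.

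Ythdc1 mRNA was low in each library labelled bKO, at 3.81, 3.79 and 3.87 FPKM, against 5.76, 6.46 and 6.18 FPKM in control libraries. For bKO replicates 2 and 3 the description field gives another Ythdc gene than the genotype field, which was followed here. The deposited FPKM (fragments per kilobase of gene, scaled to library depth by the authors' size factors) could be turned back into whole reads, 17145960 to 17770058 per bKO library and 16863329 to 18240339 per control library. The members had between 311 and 283614 reads per library. Insulin mRNA, from Ins1 and Ins2 together, took 15.6% ± 0.51 of the reads in bKO and 22.5% ± 0.82 in control (SD, n = 3 each). Of 6 beta-cell markers 0 rose and 4 fell (Ins1, Ins2, Slc2a2 and Nkx6-1), against 8.96% and 11.4% of all genes tested. Iapp and Pdx1 were not called by the test used below. The summed level of these 6 markers, mostly Ins1 and Ins2, was 130432 to 139478 FPKM in bKO and 200263 to 221925 FPKM in control. Among markers of other islet cells, Ppy and Pyy of PP cells rose, with a summed level of 11071 to 14102 FPKM in bKO and 5336 to 7062 FPKM in control. Of 6 alpha-cell markers 1 rose and 1 fell, with summed levels of 16821 to 20119 FPKM in bKO and 18491 to 22477 FPKM in control, and of 4 delta-cell markers 0 rose and 0 fell, with 5258 to 5279 FPKM in bKO and 4576 to 5040 FPKM in control. No marker on these lists was at 0 in all libraries. Granins are made in all of these cells, and the part of the cell mixture in the results below was not tested.

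The granins moved in different directions. Vgf, Chgb, Scg2 and Scg3 were higher in bKO islets and Chga was lower, while the summed FPKM of the 5 granins was 9085 ± 464 in bKO and 9122 ± 562 in control (SD, n = 3 each). Of the granule membrane pair, Ptprn was lower and Ptprn2 was not called. With limma on log2(FPKM + 1) and Benjamini-Hochberg adjustment over all 15717 genes tested, 4 of the 7 members rose, 2 fell and 1 was not called at an adjusted p of 0.05, all 7 having passed the filter on low values. Over all genes tested 20.3% were called, 8.96% higher and 11.4% lower in bKO. The bKO and control libraries did not overlap for 6 of the 7 members, against 40.1% of all genes tested. The median log2 fold change was 0.22 over the members and -0.012 over all genes tested.

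**Figure D1:**
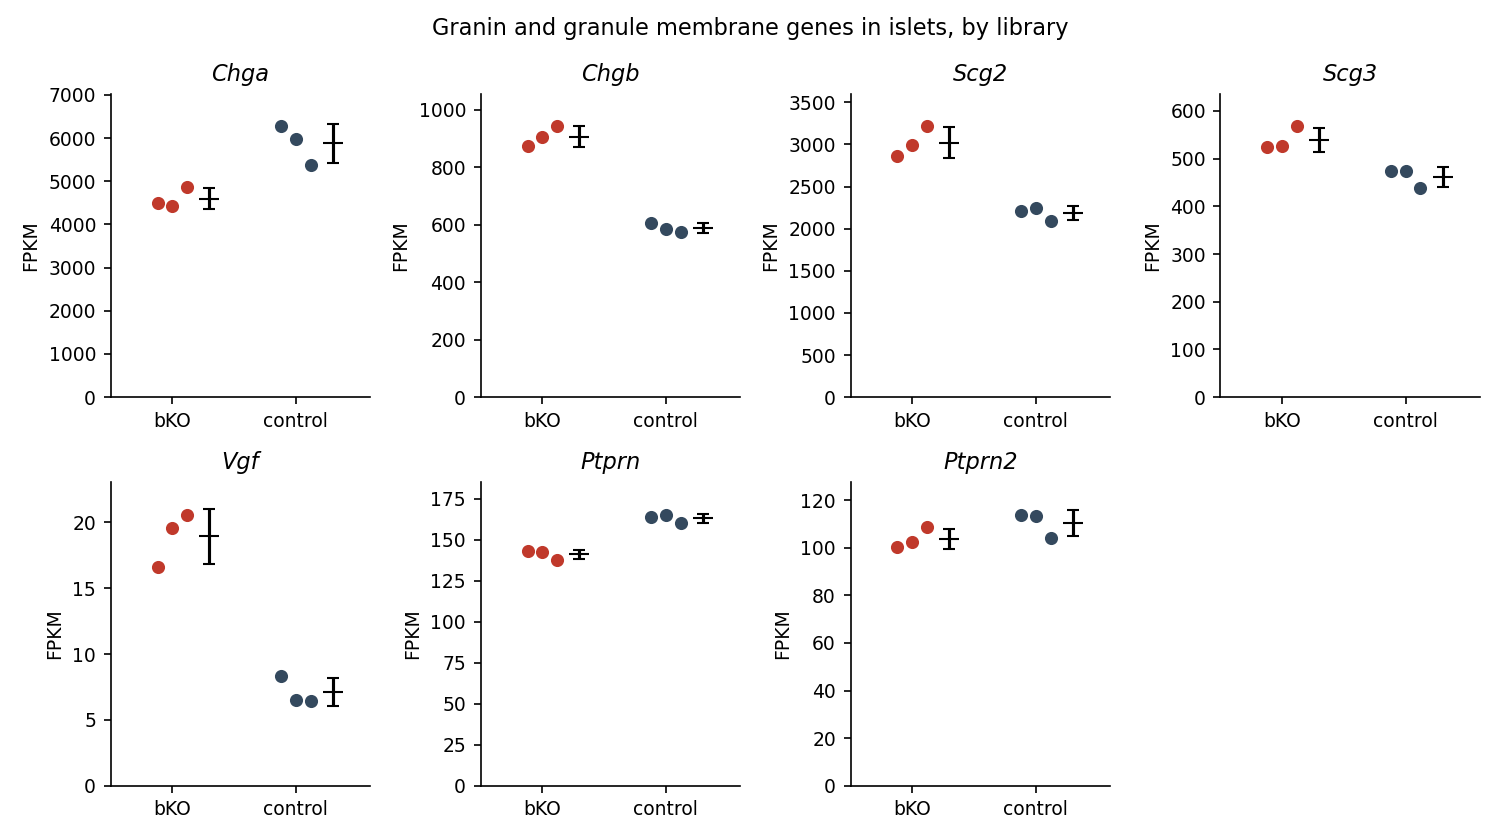
FPKM of each member in each library, with bKO libraries in red and control libraries in dark blue on axes that start at 0; the black marks give the mean ± SD of 3 libraries. Chgb, Scg2, Scg3 and Vgf lie higher in all 3 bKO libraries, Chga and Ptprn lie lower, and the groups of Ptprn2 overlap.

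Vgf, the nerve growth factor inducible granin whose product is cut into several peptides, showed the largest relative change of the 7. It had 16.6, 19.6 and 20.6 FPKM in bKO libraries, against 8.31, 6.54 and 6.46 FPKM in control libraries. The lowest bKO library was well above the highest control library. These values rest on 949, 1056 and 1132 reads in bKO and on 398, 335 and 311 reads in control. Vgf rose 2.67-fold by the ratio of means. On log2(FPKM + 1) the log2 fold change was 1.30 (SE 0.11, limma adjusted p = 0.00068), and by that value it ranked 82 among all genes tested. With 0.1 added in place of 1 the log2 fold change was 1.41. Vgf was the least abundant member in both groups, at position 2047 of all genes by mean FPKM in bKO and 5814 in control. Vgf (ENSMUSG00000037428) lies on chromosome 5, 137026392 to 137033351 (GRCm38), and overlaps no other annotated gene.

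Chgb, chromogranin B, is a core protein of the granule matrix. It had 873, 903 and 943 FPKM in bKO libraries, against 607, 584 and 575 FPKM in control libraries. Every bKO library exceeded every control library by far more than the spread within a group. The log2 fold change was 0.62 (SE 0.048, limma adjusted p = 0.00052), and its mean rose 1.54-fold. Chgb (ENSMUSG00000027350) lies on chromosome 2, 132781278 to 132795079.

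Scg2, secretogranin II, is the precursor of the peptide secretoneurin and was the second most abundant granin in both groups. It had 2862, 2988 and 3218 FPKM in bKO libraries, against 2215, 2251 and 2097 FPKM in control libraries. The groups were again apart, and the third bKO library was the highest of all 6. Its mean rose 1.38-fold, with a log2 fold change of 0.47 (SE 0.066, limma adjusted p = 0.0047). Scg2 (ENSMUSG00000050711) lies on chromosome 1, 79434669 to 79440120, on the minus strand.

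Scg3, secretogranin III, binds chromogranin A and cholesterol-rich granule membrane and so links the matrix to the membrane. It had 523, 526 and 568 FPKM in bKO libraries, against 474, 474 and 438 FPKM in control libraries. The groups did not overlap, but the gap between the lowest bKO and the highest control library was about as large as the spread within a group. The log2 fold change was 0.22 (SE 0.054, limma adjusted p = 0.029), a 1.17-fold difference of means. It did not pass when control replicate 1 or 3, or any of the bKO libraries, was left out (limma adjusted p = 0.057 to 0.081, with log2 fold changes of 0.18 to 0.24). Scg3 (ENSMUSG00000032181) lies on chromosome 9, 75643189 to 75684056, on the minus strand.

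Chga, chromogranin A, is the most abundant granin and the precursor of pancreastatin and other peptides. It had 4504, 4420.0 and 4868 FPKM in bKO libraries, against 6279, 5972 and 5381 FPKM in control libraries. All bKO libraries were below all control libraries, with a wide spread inside the control group. The mean in bKO was 0.782 of that in control, a log2 fold change of -0.35 (SE 0.085, limma adjusted p = 0.029). It did not pass when bKO replicate 1 or 2 or control replicate 1 or 2 was left out (limma adjusted p = 0.064 to 0.11, log2 fold changes of -0.34 to -0.30). Chga (ENSMUSG00000021194) lies on chromosome 12, 102554969 to 102565028.

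The fold change of every member depended on how libraries were scaled to each other. The insulin genes took a large and unequal share of the reads, and their part in this dependence was not tested. With libraries scaled by their read totals the median log2 fold change of all genes moved to 0.13, against -0.012 with the authors' size factors, and 83.4% of called genes were higher in bKO, against 44.1%. On that scale Vgf was at 1.46, Chgb at 0.80, Scg2 at 0.64 and Scg3 at 0.40, all still called. Chga was then at -0.18 (limma adjusted p = 0.12), below the median gene but no longer called. Scaling by totals without the reads of Ins1 and Ins2, an alternative chosen after seeing the data, kept the calls of all 5 granins, with Chga at -0.30 (limma adjusted p = 0.0498) and Vgf at 1.37. With no filter on low values Chga, Scg2 and Scg3 were not called (limma adjusted p = 1.0, 0.47 and 0.21), at the same fold changes.

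**Figure D2:**
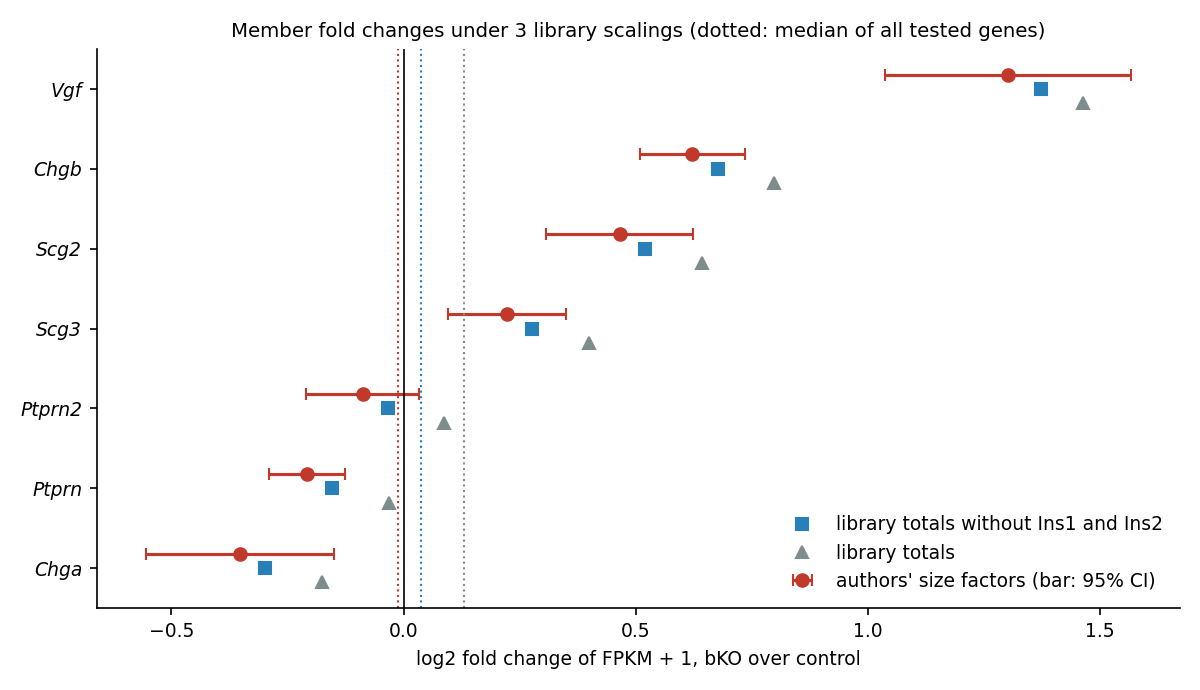
Log2 fold change of FPKM + 1 (bKO over control) of each member with the authors' size factors (red, 95% confidence interval from limma), with library totals that leave out Ins1 and Ins2 (blue squares) and with full library totals (grey triangles); dotted lines mark the median of all tested genes in the same colours. Vgf, Chgb, Scg2 and Scg3 lie right of the median gene and Chga and Ptprn left of it on all 3 scales, while the sign of Ptprn2 differs between them.

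Ratios within a library do not depend on that scaling. The ratio of Chgb to Chga in FPKM was 0.194, 0.204 and 0.194 in bKO libraries, against 0.0967, 0.0978 and 0.107 in control libraries. The mean ratio was 0.197 ± 0.0062 in bKO and 0.1004 ± 0.0055 in control (SD, n = 3 each), 1.96-fold higher in bKO (two-sided exact permutation p = 0.1, and 0.125 after adjustment over the 5 quantities tested this way). That is the smallest p that 3 against 3 libraries can give. Chga made up 50.6% ± 0.70 of the summed granin FPKM in bKO and 64.4% ± 1.1 in control, Scg2 33.3% ± 0.59 in bKO and 24.01% ± 0.81 in control, and Chgb 9.98% ± 0.20 in bKO and 6.46% ± 0.26 in control. Scg3 made up 5.94% ± 0.027 in bKO and 5.07% ± 0.11 in control, and Vgf 0.208% ± 0.017 in bKO and 0.0777% ± 0.0083 in control. None of these 5 shares overlapped between the groups, while 40.1% of all genes tested did not overlap in FPKM. The shares are parts of the same sum, so they do not move independently, and no separate test was made of them.

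**Figure D3:**
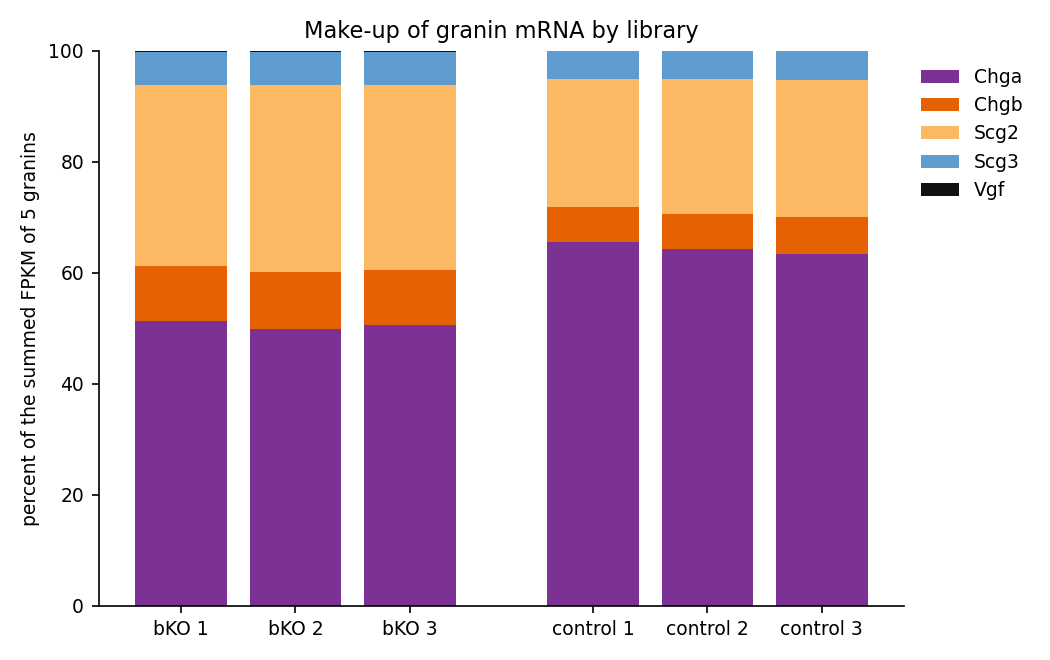
Share of each granin in the summed FPKM of Chga, Chgb, Scg2, Scg3 and Vgf (percent) in each library, bKO libraries left and control libraries right. Chga fills 49.9% to 51.3% of the bKO bars and 63.3% to 65.5% of the control bars, and the share of Vgf is too small to see at this scale.

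The granins that rose did so to different degrees. The ratio of Vgf to Chgb was 0.0209 ± 0.0016 in bKO and 0.0120 ± 0.0014 in control (SD, n = 3 each), so Vgf stood higher against Chgb in bKO. The ratio of Scg2 to Chgb was 3.33 ± 0.070 in bKO and 3.72 ± 0.12 in control, and that of Scg3 to Scg2 was 0.178 ± 0.0038 in bKO and 0.211 ± 0.0027 in control. None of these 3 ratios overlapped between the groups, and they are given as values without a test. Set against insulin mRNA, the summed granins were at 0.0752, 0.0708 and 0.0828 of the summed FPKM of Ins1 and Ins2 in bKO libraries, against 0.0467, 0.0472 and 0.0461 in control libraries. The mean was 1.63-fold higher in bKO (two-sided exact permutation p = 0.1, the smallest possible here). The insulin sum was 119282 ± 4994 FPKM in bKO and 195388 ± 10510 FPKM in control, while the granin sums of the groups overlapped. Chga, although lower in bKO, was at 0.0543 ± 0.0043 of Ins2 in bKO and 0.0437 ± 0.0015 in control.

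The 7 members together took 2.70%, 2.66% and 2.91% of the reads in bKO libraries, against 2.56%, 2.52% and 2.35% in control libraries. The mean share was 2.75% ± 0.13 in bKO and 2.48% ± 0.11 in control (SD, n = 3 each, two-sided exact permutation p = 0.1, the smallest possible here). Counted over the reads outside Ins1 and Ins2, the shares differed by 1.02-fold (two-sided exact permutation p = 0.6), so the difference in the share of all reads did not hold on that base.

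**Figure D4:**
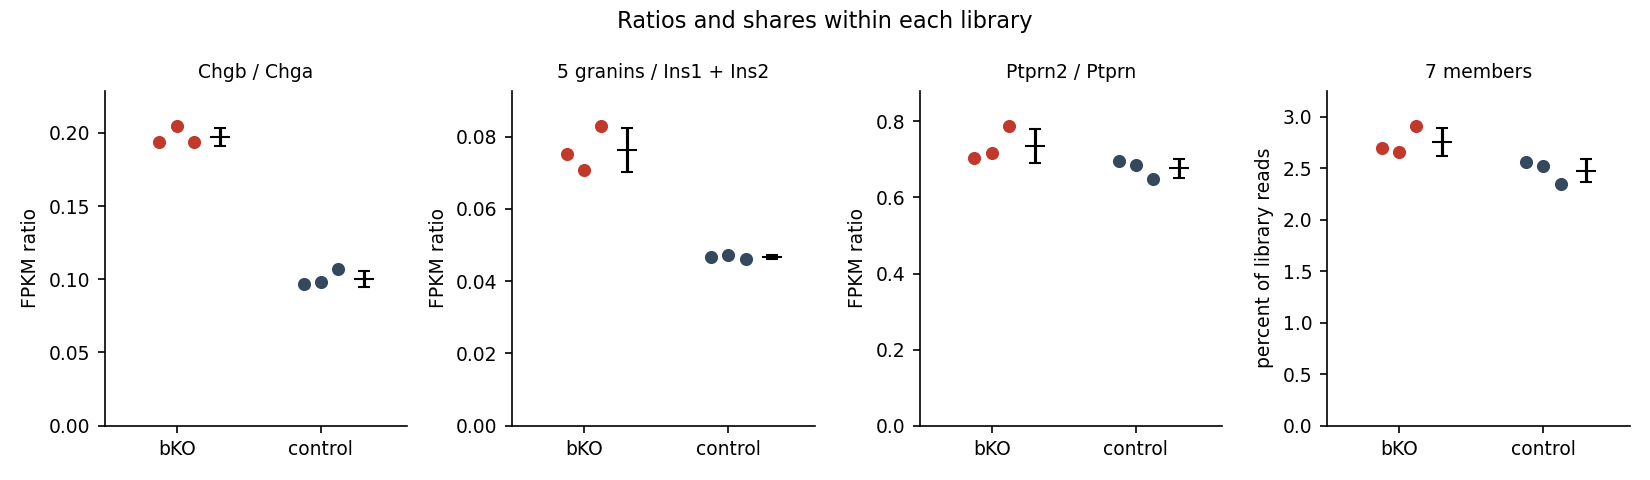
Ratio of Chgb to Chga, of the 5 granins to Ins1 plus Ins2 and of Ptprn2 to Ptprn (FPKM ratios), and the share of library reads taken by the 7 members (percent), in each library, with mean ± SD of 3 libraries in black and axes that start at 0. The ratio of Chgb to Chga lies between 0.194 and 0.204 in bKO and between 0.0967 and 0.107 in control.

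The promoters of the granins that moved in opposite directions are shown here because several of them carry a cAMP response element or part of one. The consensus of that element, the binding site of CREB, is TGACGTCA, and TGACG is its core. Windows of 250 bases before to 50 after the RefSeq start (GRCm38.p6) were present for 6 of the 7 members, with 2 for Ptprn. Vgf, the member with the largest rise, had no window. They are written in the direction of the gene, with the element or its core in capitals. The windows lie at chr2:132781392-132781691 (plus strand) for Chgb, chr1:79439977-79440276 (minus strand) for Scg2 and chr12:102554691-102554990 (plus strand) for Chga.
Chgb: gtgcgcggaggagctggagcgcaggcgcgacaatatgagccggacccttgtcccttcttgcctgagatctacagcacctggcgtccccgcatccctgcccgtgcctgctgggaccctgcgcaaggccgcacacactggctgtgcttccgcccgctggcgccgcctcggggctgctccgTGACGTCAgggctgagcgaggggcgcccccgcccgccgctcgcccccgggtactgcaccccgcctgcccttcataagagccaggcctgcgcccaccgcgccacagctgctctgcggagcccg
Scg2: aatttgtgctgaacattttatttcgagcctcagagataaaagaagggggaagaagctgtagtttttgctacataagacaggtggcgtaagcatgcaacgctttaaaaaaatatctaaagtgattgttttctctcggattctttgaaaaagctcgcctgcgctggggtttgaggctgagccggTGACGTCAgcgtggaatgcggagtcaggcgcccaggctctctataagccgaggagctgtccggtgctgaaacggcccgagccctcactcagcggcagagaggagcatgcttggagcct
Chga: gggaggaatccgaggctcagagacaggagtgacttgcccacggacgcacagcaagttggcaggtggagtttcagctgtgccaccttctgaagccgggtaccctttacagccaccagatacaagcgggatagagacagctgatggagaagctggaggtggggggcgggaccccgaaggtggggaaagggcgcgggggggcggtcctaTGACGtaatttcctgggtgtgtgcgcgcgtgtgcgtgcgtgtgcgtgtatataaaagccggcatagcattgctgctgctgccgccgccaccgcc

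Chgb and Scg2, which rose, both held the full TGACGTCA, whose first base lay 72 and 68 bases before the start. Chga, which fell, held the core followed by other bases (TGACGTAA, 44 bases before the start). Scg3, which rose, and Ptprn, which fell, also held the core followed by other bases (TGACGCCA and TGACGCAA). The sites of Scg3 and Ptprn are shown here for comparison as stretches of 40 bases at chr9:75684063-75684102 and chr1:75264302-75264341 (both minus strand).
Scg3: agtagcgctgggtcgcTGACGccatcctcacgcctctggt
Ptprn: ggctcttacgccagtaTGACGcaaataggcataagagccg

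A second core lay on the opposite strand of that Ptprn window, 80 bases before the start, and the letters were not found in the other Ptprn window or in that of Ptprn2. Searched on both strands, TGACGTCA, whose every match also holds the core, was found in 1.79% of all 32851 promoter windows, and the core in 20.8%. Counted per gene, as the members are, 3.66% of the 10433 tested genes with a window held TGACGTCA and 35.2% held the core. Of the 382 tested genes with TGACGTCA, 9.42% rose and 12.6% fell, against 8.93% and 12.6% of all 10433. A match of letters is a description and does not show that a factor binds there.

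Ptprn was lower in bKO islets. It had 143, 143 and 138 FPKM in bKO libraries, against 164, 165 and 160.0 FPKM in control libraries. The groups were apart and each was tight. The mean in bKO was 0.865 of that in control, a log2 fold change of -0.21 (SE 0.035, limma adjusted p = 0.0080). With libraries scaled by their totals it was at -0.032 (limma adjusted p = 0.50), below the median gene at 0.13, and with totals that leave out the insulin genes at -0.15 (limma adjusted p = 0.024). Ptprn (ENSMUSG00000026204) lies on chromosome 1, 75247027 to 75264502, on the minus strand.

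Ptprn2, the paralog of Ptprn, had 100.4, 102 and 109 FPKM in bKO libraries, against 114, 113 and 104 FPKM in control libraries. The highest bKO library lay inside the range of the control libraries. The log2 fold change was -0.088 with a 95% confidence interval of -0.21 to 0.033 (limma adjusted p = 0.27), and it was 0.088 with libraries scaled by their totals. The ratio of Ptprn2 to Ptprn was 0.703, 0.718 and 0.787 in bKO libraries, against 0.695, 0.685 and 0.649 in control libraries. The mean ratio was 0.736 ± 0.045 in bKO and 0.676 ± 0.024 in control (SD, n = 3 each, two-sided exact permutation p = 0.1, the smallest possible here), and the gap between the groups was smaller than the spread within either. Ptprn2 (ENSMUSG00000056553) lies on chromosome 12, 116485720 to 117276849.

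The order of the levels was the same in both groups. Per kilobase it ran Chga, Scg2, Chgb, Scg3, Ptprn, Ptprn2 and Vgf, and no neighbours in this order overlapped between libraries of one group. Chga was at position 9 of all genes by mean FPKM in bKO and at position 6 in control, and Scg2 at position 11 in bKO and 12 in control. Chgb was at position 22 in bKO and 28 in control, and Scg3 at 28 in bKO and 31 in control. Levels between genes rest on the gene length in the table, which joins all annotated exons. For Chga that length was 2756 bases while its longest coding transcript has 1883, and for Ptprn2 it was 8602 bases against 3201. In reads, without division by length, Ptprn2 had 15980 to 17259 in bKO and 14482 to 16802 in control, more than Ptprn with 10834 to 11659 in bKO and 11017 to 12110 in control.

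Other annotated genes overlap the spans of 3 members, and no strand setting for the counting is given in the sources used here. Whether exons overlap was not checked, and the effect on the values of these members was not tested. Scg3 overlaps the opposite-strand gene Gm37871, at 0.179 to 1.43 FPKM over all libraries, and Ptprn the antisense gene Gm28294, at 0.280 to 1.75 FPKM. Ptprn2 overlaps 6 annotated genes, of which Gm17807, a pseudogene on the same strand, had the highest value at 0.834 to 4.97 FPKM. Chga, Chgb, Scg2 and Vgf overlap none in GENCODE vM21.

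The members also differ in transcript structure. The longest coding transcript has 2 exons for Scg2, 5 each for Chgb and Vgf, 8 for Chga, 12 for Scg3 and 23 each for Ptprn and Ptprn2. Of the forms of the consensus at which N6-methyladenosine is placed, only the letters GGACT were counted, on the strand of each transcript. They occurred 6 times each in Ptprn and Ptprn2, which is 1.69 and 1.87 per kilobase, against a median of 1.05 over 12440 tested protein-coding genes (quartiles 0.642 and 1.52). Scg3 held 2 matches (0.839 per kilobase), Chga, Chgb and Vgf 1 match each (0.531, 0.365 and 0.353 per kilobase) and Scg2 held 0. Methylation itself was not analysed here.

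The rest of the granule machinery was described with 7 lists of 102 genes, 94 of them tested. In all 8 rose and 21 fell, and list medians ran from -0.19 to 0.035, against -0.012 over all genes tested. Of all genes tested 8.96% rose and 11.4% fell, and the counts of each list below stand against those shares. That balance turned with libraries scaled by their totals, where 29 rose and 10 fell. Over all 15755 genes tested on that scale 3702 rose and 737 fell, so the turn was not particular to the lists. The balance of the lists did not turn with totals that leave out the insulin genes, where 11 rose and 18 fell. There 1784 of all 16514 genes tested rose and 1291 fell. Of the granin-like proteins, Scg5, the chaperone of the convertase PC2, fell by 0.18 on the log2 scale (limma adjusted p = 0.025), but the call was lost on both total scales (-7.1e-05 and -0.12), with no filter and without control replicate 1 or bKO replicate 1 or 2. Pcsk1n, the PC1 inhibitor proSAAS, was at 587 ± 19 FPKM in bKO and 678 ± 65 FPKM in control (limma adjusted p = 0.097), and it was called lower without control replicate 3 and by voom on the recovered reads (limma adjusted p = 0.023 and 0.0016).

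Of 8 tested prohormone processing enzymes 1 fell and 2 rose, with a median of 0.035. Pcsk1, the convertase that makes the initial cut in proinsulin, was at 95.7 ± 1.1 FPKM in bKO and 143 ± 6.0 FPKM in control (SD, n = 3 each), and it fell by 0.57 in log2 units (limma adjusted p = 0.00040). Pcsk4 rose by 0.44 (not called with no filter), and Pam, the enzyme that amidates peptides, by 0.15, but the call of Pam was lost with any library left out (limma adjusted p up to 0.15 over all alternatives). Cpe, which trims basic residues after the convertases, was at 1514 ± 37 FPKM in bKO and 1556 ± 65 FPKM in control, and Pcsk2 at 403 ± 11 FPKM in bKO and 435 ± 17 FPKM in control, and neither was called (limma adjusted p = 0.64 and 0.14), though voom called Pcsk2 lower (limma adjusted p = 0.014).

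Among 22 tested genes of granule biogenesis and cargo sorting 5 fell and 1 rose, with a median of -0.030. Scaled by library totals, 2 fell and 7 rose, with a median of 0.13, and with totals that leave out the insulin genes 5 fell and 4 rose. The sorting receptor genes Sort1 and Sorl1 fell by 0.37 and 0.48 in log2 units, and Arfip2, an arfaptin, rose by 0.22, each called under every alternative tried. Rab2a, Gga2 and Ica1l fell by 0.20, 0.26 and 0.50, and these 3 calls were lost with libraries scaled by their totals and with no filter. The call of Rab2a was also lost without bKO replicate 1, that of Gga2 without control replicate 1 or bKO replicate 1 or 2, and that of Ica1l without bKO replicate 1 or any control library. Hid1, a factor of granule maturation, was at 49.3 ± 1.3 FPKM in bKO and 49.1 ± 3.1 FPKM in control, and Arf1 at 182 ± 3.1 FPKM in bKO and 187 ± 4.8 FPKM in control (limma adjusted p = 0.92 and 0.50). Both were called higher with libraries scaled by their totals (limma adjusted p = 0.035 and 0.018).

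Among 29 tested genes of the granule membrane and docking 8 fell and 1 rose, with a median of -0.029. Scaled by library totals, 4 fell and 9 rose, with a median of 0.14 against 0.13 over all genes. With totals that leave out the insulin genes 6 fell and 1 rose, with a median of 0.024 against 0.037 over all genes. Sytl4 (granuphilin), a granule docking protein, was at 35.2 ± 3.2 FPKM in bKO and 89.1 ± 3.2 FPKM in control, and Slc30a8, the granule zinc transporter, at 387 ± 30 FPKM in bKO and 672 ± 18 FPKM in control (SD, n = 3 each). They fell by 1.32 and 0.80 on the log2 scale (limma adjusted p = 0.00015 and 0.00057), more than either Ptprn or Ptprn2. Rab27a fell by 0.36 and Vamp3 by 0.27, and the priming factor gene Unc13a rose by 0.39. With no filter the calls of Vamp3 and Unc13a were lost, and with libraries scaled by their totals that of Vamp3. The granule SNARE gene Vamp2 was at 47.2 ± 2.5 FPKM in bKO and 47.1 ± 2.3 FPKM in control, and Syt7 at 52.9 ± 1.7 FPKM in bKO and 54.0 ± 1.1 FPKM in control (limma adjusted p = 0.97 and 0.61), but both were called higher with libraries scaled by their totals (limma adjusted p = 0.042 and 0.026).

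Of 10 cytoskeletal and signalling partners of Ptprn 3 fell and 1 rose, with a median of -0.16. Stat5b, Pias2 and the utrophin gene Utrn fell by 0.41, 0.32 and 0.31 on the log2 scale, and Sptbn4, a spectrin gene, rose by 0.41. The calls of Pias2 and Utrn were lost with libraries scaled by their totals (limma adjusted p = 0.054 and 0.060). Capn1 and Pias4 were not called (limma adjusted p = 0.99 and 0.14), though Pias4 was called higher with library totals (0.31, limma adjusted p = 0.0093). Of 10 tested regulators of granule gene mRNA, Insm1, a transcription factor of endocrine cells, was called at 0.20 (limma adjusted p = 0.041), but not without bKO replicate 1 or 2 or control replicate 2 or 3 or with no filter. Ptbp1, which stabilises granule mRNAs in rat insulinoma cells, was at 29.7 ± 1.1 FPKM in bKO and 33.2 ± 1.3 FPKM in control (limma adjusted p = 0.056), and Ptbp3 was at 0.060 on the log2 scale (limma adjusted p = 0.40). Ptbp1 was called lower by voom (limma adjusted p = 0.020), and Ptbp3 was called higher with library totals (0.23, limma adjusted p = 0.0092). Rest, a repressor of neuroendocrine genes, was below the filter at 0.424 FPKM in bKO and 0.407 FPKM in control.

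Among 13 tested receptor-type tyrosine phosphatases other than Ptprn and Ptprn2, 3 fell and 2 rose, with a median of -0.043. Ptprf fell by 0.46, Ptpru by 0.71 and Ptprt by 0.29 in log2 units, and Ptprt was not called with libraries scaled by their totals (limma adjusted p = 0.10). Ptprg rose by 0.55 (not called with no filter) and Ptprb, a phosphatase of endothelium, by 0.29. 4 of 6 endothelial markers rose as well, against 8.96% of all genes tested, with the authors' size factors as the only scale tried for them. The 6 had a summed level of 180 to 184 FPKM in bKO and 138 to 161 FPKM in control. Plvap alone had a mean of 98.4 FPKM in bKO and 81.9 FPKM in control. The part of vessels in the value of Ptprb was not tested. Ptprj and Ptpra were not called (limma adjusted p = 0.67 and 0.27). Ptprn, at 141 ± 2.8 FPKM in bKO and 163 ± 2.8 FPKM in control, was more abundant than any of them, Ptprf following at 54.1 ± 0.85 FPKM in bKO and 74.7 ± 2.8 FPKM in control.

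**Figure D5:**
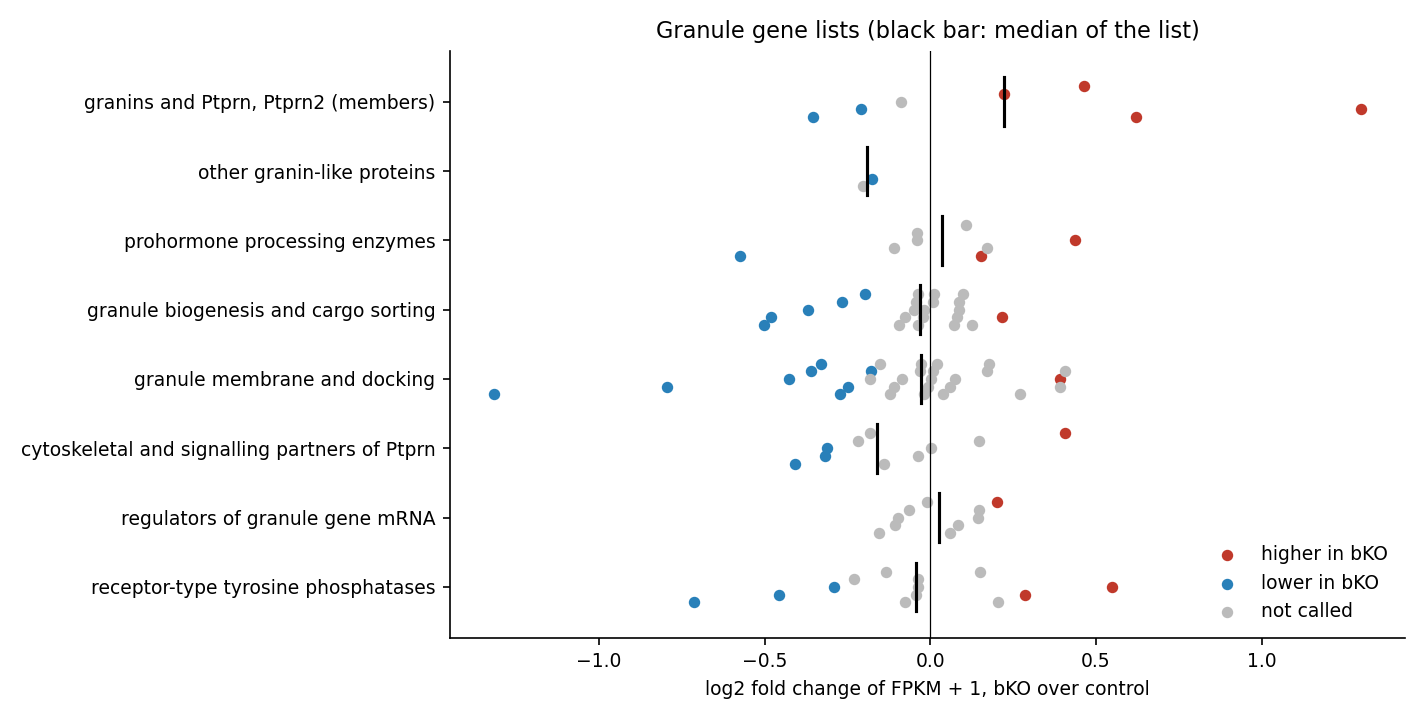
Log2 fold change of FPKM + 1 (bKO over control) of each tested gene in the member list and in 7 lists of granule and phosphatase genes, red where called higher in bKO, blue where called lower and grey where not called; black bars mark list medians. Sytl4 at -1.32 is the lowest point and Vgf at 1.30 the highest.

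The genes whose values over the 6 libraries were most like each member were taken from 4102 tested protein-coding genes with a mean of at least 10 FPKM. Pearson's r on log2(FPKM + 1) is given as a description, and the difference between the groups of libraries sets much of it. Nearest to Chgb were Mthfd2, Car8 and Etv5 (r = 0.9997, 0.998 and 0.997), and nearest to Vgf were Spsb2, Chgb itself and Dnajc14 (r = 0.996, 0.995 and 0.994). Ppp1r10, Cebpg and Ccng1 were nearest to Scg2 (r = 0.997, 0.997 and 0.994) and Iqgap1, Flt1 and Dgkz to Scg3 (r = 0.996, 0.996 and 0.994). Eef2, Disp2 and Immp1l were nearest to Chga (r = 0.994, 0.993 and 0.992), Fkbp8, Prkca and Rims3 to Ptprn (r = 0.999, 0.998 and 0.998), and Ndufv1, Copb1 and Nmt1 to Ptprn2 (r = 0.986, 0.985 and 0.982). Mthfd2, a mitochondrial folate enzyme, was at 29.4 FPKM in bKO and 19.3 FPKM in control, and Car8 at 18.2 FPKM in bKO and 5.98 FPKM in control.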

How the data were processed

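Poly(A)-selected RNA of 6 islet libraries was sequenced, per the labels' protocols. The submitters' processing notes name GRCm38, CASAVA, HISAT2 2.0.5, featureCounts 1.5.0-p3 and DESeq2 1.20.0, with no role or order. Strand setting, annotation release and the handling of reads with several matches are not given in the sources used here. FPKM is the unit of the table deposited by the authors. Multiplying each FPKM by its gene's length and by a constant of its library returned whole reads for all values (tolerance 0.01). Those constants equal size factors by the median-of-ratios method, scaled by the libraries' mean depth.

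Genes with at least 0.5 FPKM in at least 3 libraries entered limma 3.58.1 (R 4.3.3), on log2(FPKM + 1) with a mean-variance trend and no covariate. Such fold changes understate those of low genes. Replicates are independent biological ones in the labels, and libraries of a group differed beyond sampling noise (chi-square per degree of freedom 4.09 to 6.50). Ratios and shares were compared with exact permutation tests (scipy 1.17.1).

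The members and lists were chosen with earlier results of these data known. Of each list the text names the called genes, up to 6, and up to 2 of the most abundant not called. 1 further gene under that rule is not reported. Simulated data served to test the limma step. Of the table's gene IDs 54409 were found in GENCODE vM21, 53499 with the same start and end. Alternatives were other scalings, filters and pseudocounts, voom on the recovered reads (4358 genes called), the replicate number as a block and leaving out each library.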

Additional observations from a re-analysis of the deposited data

How the results depend on the processing

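Of 14 alternatives, Chgb and Vgf were called in the same direction under 14, Scg2 and Ptprn under 13 (not with no filter for Scg2, limma adjusted p = 0.47, and not with library totals for Ptprn), Chga and Scg3 under 7, and Ptprn2 under 0. The fall of Ins1 was called under 11 of the 14. That of Ins2, at a limma adjusted p of 0.046 with the authors' size factors, was called under 5. With no filter 3 members and 1315 genes were called, against 6 and 3192. Leaving out 1 library gave 1830 to 2835 called genes. The fold of the summed member share over reads outside Ins1 and Ins2 was 1.02, against 1.11 over all reads. The cause of these shifts was not tested.

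Same-numbered libraries did not vary together (correlations of their deviations of -0.073 to -0.014). With 3 libraries per group such correlations cannot exclude a pairing, for which the labels give only the replicate number. With that number as a replicate block 2077 genes were called, and Chga and Scg3 were not (limma adjusted p = 0.099 and 0.094), nor were Scg5, Pam, Gga2 and Insm1 (0.080, 0.11, 0.060 and 0.090).

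Signs that turned belonged to genes not called with the authors' size factors. With library totals Ptprn2 was at 0.088, Cpe at 0.14, Pcsk2 at 0.067, Arf1 at 0.14, Syt7 at 0.14, Ptbp1 at 0.016, Ptprj at 0.12 and Ptpra at 0.080, of which Arf1 and Syt7 were called higher (limma adjusted p = 0.018 and 0.026). Hid1, Vamp2, Pias4 and Ptbp3 also gained calls on that scale, at 0.18, 0.18, 0.31 and 0.23, as did Pcsk1n, Pcsk2 and Ptbp1 with voom, at -0.21, -0.11 and -0.16. With totals that leave out Ins1 and Ins2, Cpe was at 0.015, Arf1 at 0.016, Syt7 at 0.022 and Ptprj at 0.011. Leaving out 1 library, Hid1 ran from -0.030 to 0.057, Vamp2 from -0.036 to 0.046, Capn1 from -0.046 to 0.032 and Ptprj from -0.057 to 0.00021. Depth limits mainly Vgf, with 311 to 398 reads per control library.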
